A study of Mus musculus with 6 samples.

Results

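Among the 59485 rows of an expression table from mouse sciatic nerve, 22 loci without a gene symbol had at most 10 normalised reads in each of 3 control-labelled libraries and at least 50 in each of 3 mutant-labelled libraries. These 22 loci, out of 35979 rows without a symbol, are described here by their position, their values and the named genes around them. The nerves were taken at postnatal day 4 (P4) and each animal gave 1 library of the poly-A fraction, with the strand of the RNA kept. The labels give the controls as wild-type and the mutants as Ht-PA-Cre; Adar1fl/fl;R26R. In the mutants the human tissue plasminogen activator promoter drives Cre recombinase in neural crest (NC) cells, so that Adar, the gene of ADAR1, is floxed out in Schwann cells (SCs) and other NC derivatives, and R26R is a YFP tracer of these cells. Endothelial cells, blood cells and other nerve cells that do not come from the NC keep the gene, and the values are sums over all of them. A rise in such a sum cannot be told apart as more cells of a type or more RNA per cell.

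ADAR1 changes adenosine to inosine in double-stranded RNA, and unedited endogenous duplexes are known to be read by the cytosolic sensor MDA5 as if they were viral, which switches on interferon-stimulated genes (ISGs). Double-stranded RNA can form where both strands of a locus are transcribed, or where inverted repeats lie in 1 transcript. Loci without a symbol are of many kinds, among them long non-coding RNAs, transcripts antisense to a known gene, pieces of genes beyond their annotated exons, and pseudogenes whose reads are shared with the parent gene. The expression values described here measure neither editing nor duplexes.

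Adar itself had 1602, 2066 and 1133 normalised reads in the control-labelled libraries and 11768, 9311 and 9773 in the mutant-labelled ones. This goes against the deletion in the labels, but the table has 1 value for the whole gene, and Adar is an ISG. Directions below are therefore drawn from the labels. The 6 libraries had between 50938349 and 78250094 reads on all rows. Of the 77 tested genes on a list of 80 ISGs, 77 were higher, beside 16.6% of all tested named rows. SC markers were lower for 7 of 10 genes (summed values of 3635076 to 4450144 in controls and 116977 to 557684 in mutants), which checks the tissue in the controls. Skeletal muscle markers were higher for 5 of 7, with sums of 4069 to 21615 and 28018 to 209378. T, B and NK cell markers were higher for 6 of 10 tested, with sums of 125 to 269 and 537 to 693, and Prf1, Gzmb, Cd8a and Cd3d were at 0 in every control. Macrophage markers were higher for 2 and lower for 3 of 9, neutrophil markers for 0 of 3 in either direction, endothelial markers for 0 of 4, erythroid markers were lower for 3 of 4, and fibroblast and perineurial markers for 1 of 4. The part of these cell types in the loci was not tested.

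The loci lay on 9 chromosomes, with 4 each on chromosomes 1 and 11, 3 each on 2 and 7, 2 each on 5, 6 and 10, and 1 each on 15 and 16. There were 12 on the plus and 10 on the minus strand. They were between 144 and 301005 bp long, with a median of 6234 bp, beside a median of 2469 bp over the 9153 unnamed rows with enough reads to be tested. A length over 10 kb was found for 7 of 22 loci (31.8%) and for 10.2% of the tested unnamed rows. Length and reads are not independent, and this is a description. The same limits held for 77 rows with a symbol, 54.5% of them over 10 kb, and 5 unnamed rows had the reverse pattern, low in mutants and high in controls. By the table's coordinates (mm10), 12 loci overlapped a named gene on the opposite strand only, 3 overlapped one on their own strand, and 7 overlapped none. A named gene lay within 50 kb of 21 loci. The exception was GSMG0036519 on chromosome 7.

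Of the 22 loci, 4 had the ends of a gene in GENCODE vM21 on their strand, within 10 bp. GSMG0000486 is A530040E14Rik, which GENCODE classes as antisense. GSMG0034503 is Gm14377, antisense to Ptpn5. GSMG0036519 is Gm21123, a long intergenic non-coding RNA, and GSMG0014132 is I830127L07Rik, a transcribed pseudogene that RefSeq names Ly6a2. The 250 bases before the RefSeq start (GRCm38.p6, which has the coordinates of mm10) are shown for 2 of these 4 loci, A530040E14Rik and Ly6a2, as examples of an annotated transcription start.
A530040E14Rik, chr1:85105843-85106092, plus strand: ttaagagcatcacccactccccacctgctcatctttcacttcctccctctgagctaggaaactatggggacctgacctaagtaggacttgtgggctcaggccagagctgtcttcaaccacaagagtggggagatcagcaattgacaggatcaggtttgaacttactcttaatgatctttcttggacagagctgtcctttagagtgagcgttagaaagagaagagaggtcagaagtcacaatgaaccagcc
Ly6a2, chr15:75135129-75135378, minus strand: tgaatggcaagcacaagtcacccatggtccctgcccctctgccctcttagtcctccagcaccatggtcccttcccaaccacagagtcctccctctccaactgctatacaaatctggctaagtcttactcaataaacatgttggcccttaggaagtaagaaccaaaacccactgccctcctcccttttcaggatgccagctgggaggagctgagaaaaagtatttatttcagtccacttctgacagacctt

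The row GSMG0000486 itself begins 149 bases before the RefSeq start of A530040E14Rik, so that part of the printed window lies in the row.

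The 22 loci were chosen by their normalised reads in these 6 libraries, so the size of their rise is a description and carries no test. The 3 control-labelled libraries held 113 reads on all 22 loci together and the mutant-labelled ones 11550. There were 7 loci with 0 reads in all controls, 3 with 1 to 3 reads and 12 with more. The mean mutant value was under 100 for 11 loci, with a median of 102 and the highest at 1150, 232 and 203. These are reads per locus and not per length, because the table does not give the length that was counted. All 22 passed the study's threshold (limma, unadjusted p at or under 0.05 and at least 2-fold), beside 8.83% of tested unnamed rows called higher. The median log2 fold change of the 22 was 5.88. The limits used the same libraries, and nothing is read from this count. A fold change is given below as a lower bound where all 3 controls were at 0, with a floor of 3 reads in each control, and otherwise as a ratio of reads with an exact 95% interval. Intervals and floors cover counting error only.

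**Figure D1:**
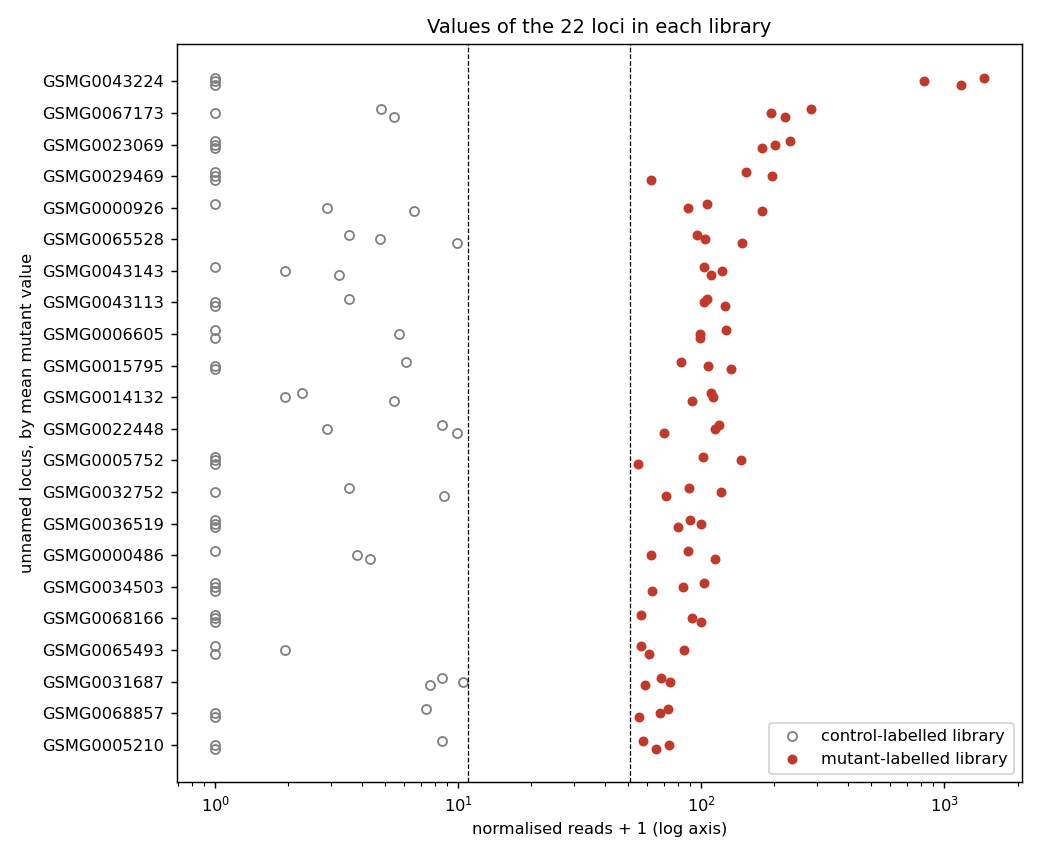
Normalised reads plus 1 (log axis) of each of the 22 loci in the 3 control-labelled libraries (open grey points) and the 3 mutant-labelled libraries (filled red points), sorted by mean mutant value, with dashed lines at the limits of 10 and 50. GSMG0043224 stands alone with 820 to 1455 in the mutants, and the gap between the dashed lines is empty because the limits define it.

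The mutant-labelled libraries did not differ in one direction. Replicate 1 had the highest mutant value for 6 loci, replicate 2 for 9 and replicate 3 for 7, and the lowest was in replicate 1 for 10 and in the other two for 6 each. The ratio of the highest to the lowest mutant value had a median of 1.52. It was smallest for GSMG0043143 (1.18), GSMG0014132 (1.22), GSMG0043113 (1.23), GSMG0036519 (1.24) and GSMG0031687 (1.28). It was largest for GSMG0029469 (3.17), GSMG0005752 (2.69), GSMG0000926 (2.03), GSMG0000486 (1.85) and GSMG0068166 (1.79).

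The first group mirrors stress-response genes. Gadd45b (a growth arrest and DNA damage-induced signalling protein) and Trib3 (a pseudokinase induced by endoplasmic reticulum stress and amino acid shortage) each have an unnamed row on the opposite strand that covers the gene from end to end. GSMG0065528 (chromosome 10, 80930071 to 80932205, 2135 bp) had 8.88, 3.78 and 2.53 normalised reads in the controls, given here and below in the order of the replicate numbers, against 145, 102 and 95 in the mutants. Gadd45b on the other strand had 312, 375 and 198, and 6555, 5233 and 5555. Both rows were low in every control and high in every mutant.

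GSMG0067173 (chromosome 2, 152337419 to 152344064, 6646 bp), the second highest of the 22, had 4.44, 0 and 3.80 in the controls against 220, 193 and 282 in the mutants, 90.3 times as many (95% interval 43.6 to 225). Trib3 had 82.2, 36.9 and 120 in the controls against 10367, 8396 and 12559 in the mutants. The mutant with the highest Trib3, replicate 3, also had the highest GSMG0067173.

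In the mutant-labelled libraries, the opposite-strand row held 2.0% of the reads of Gadd45b (95% interval 1.81 to 2.21) and 2.21% of those of Trib3 (2.05 to 2.37). Because the limits hold control values of the loci low, shares in the controls are given here and below as descriptions. In the controls these were 1.68% for Gadd45b (0.914 to 2.83) and 3.37% for Trib3 (1.34 to 7.06). The table holds 910 unnamed rows that mirror a named gene in this way, with at least 90% of each covered by the other. Where the named gene had a mean of at least 1000, the mirror row held a median of 2.18% of its reads in the mutants (interquartile range 1.82 to 2.73%, 551 rows) and 2.41% in the controls (1.98 to 3.08%, 538 rows). By library the median lay between 2.03 and 2.46%. Both loci lay within the interquartile range of the mutants. What part of mirror rows is antisense RNA and what part is reads of the gene given the wrong strand was not tested.

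**Figure D2:**
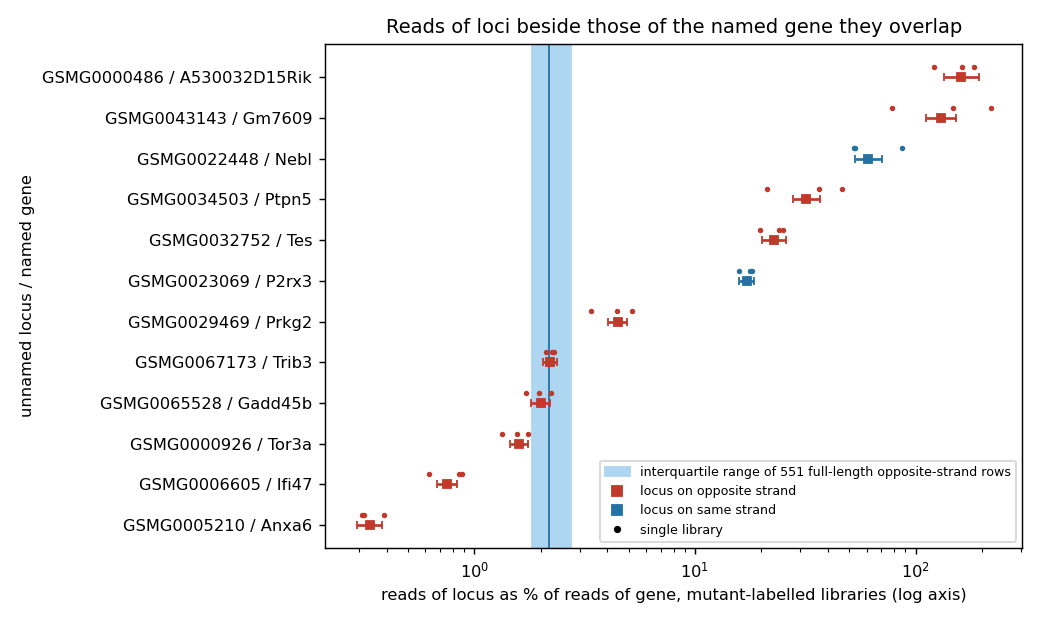
Reads of an unnamed locus as a percentage of the reads of the named gene it overlaps, over the 3 mutant-labelled libraries together (squares, with 95% intervals for counting error) and in each of them (dots), on a log axis, for loci on the opposite strand (red) and the same strand (blue). The shaded band is the interquartile range, 1.82 to 2.73%, of the 551 full-length opposite-strand rows and the line their median of 2.18%, with Gadd45b and Trib3 inside the band and the other loci from 0.335% for Anxa6 to 161% for A530032D15Rik.

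A second group covers short stretches on the opposite strand of 3 genes that were higher in the mutants. GSMG0000926 (chromosome 1, 156655305 to 156655732, 428 bp) lies between 89.8 and 91.9% of the length of Tor3a, a torsin-family ATPase of the endoplasmic reticulum that interferon induces, and all of its bases are exonic in GENCODE on the Tor3a strand. It had 5.55, 1.89 and 0 in the controls against 176, 86.8 and 105 in the mutants. Tor3a had 254, 372 and 105 in the controls against 10014, 5550 and 7866 in the mutants, so that replicate 1 was highest and replicate 2 lowest of the mutants in both rows. The locus held 1.59% of the reads of Tor3a in the mutants (1.45 to 1.75) and 0.992% in the controls (0.397 to 2.05). Single controls varied, with 2.18, 0.508 and 0%.

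GSMG0006605 (chromosome 11, 49086027 to 49087165, 1139 bp) lies opposite Ifi47, an interferon-inducible GTPase. It had 0, 4.72 and 0 in the controls against 98.2, 97.4 and 126 in the mutants. Ifi47 had 195, 1683 and 120, and 15763, 11044 and 14808. Control replicate 2, the control with the most Ifi47, was the only control with reads on the locus. The locus held 0.755% of the reads of Ifi47 in the mutants (0.679 to 0.837) and 0.244% in the controls (0.0790 to 0.570).

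GSMG0029469 (chromosome 5, 98930300 to 98931712, 1413 bp) lies opposite the end of Prkg2, the membrane-bound type of cyclic GMP-dependent protein kinase, and stops 527 bp before the gene does. It was at 0 in all controls and had 61.1, 194 and 152 in the mutants, at least 40.9-fold higher. Prkg2 had 40.0, 35.9 and 38.0 in the controls against 1805, 3758 and 3421 in the mutants. Mutant replicate 1 was the lowest and replicate 2 the highest for both. The share was 4.46% in the mutants (4.05 to 4.91), and in the controls 0 stood beside 104 reads of Prkg2, which at the floor of 3 reads in each control allows up to 8.65%.

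**Figure D3:**
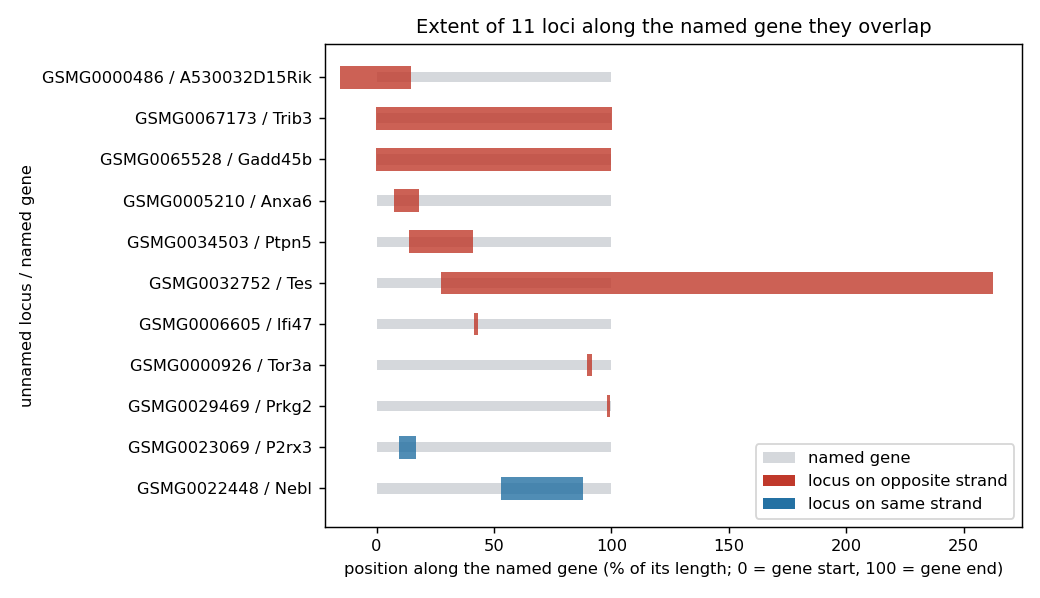
Position of 11 unnamed loci along the named gene they overlap, as a percentage of the gene's length from its start (0) to its end (100), with the gene in grey, loci on the opposite strand in red and loci on the same strand in blue. The loci at Gadd45b and Trib3 run the whole gene, those at Tor3a and Prkg2 lie near its end, those at Anxa6 and Ptpn5 lie inside, and that at Tes goes on past it.

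The loci opposite Anxa6, Ptpn5 and Tes cover only part of the gene, so their shares are not a like measure to those of the mirror rows. Anxa6 encodes annexin A6, a calcium-dependent membrane-binding protein. It had 17448, 17414 and 15416 in the controls against 20211, 18623 and 18298 in the mutants, and it did not pass the threshold (log2 fold change 0.19, SE 0.09, limma adjusted p = 0.145). GSMG0005210 (chromosome 11, 55023699 to 55029520, 5822 bp), inside Anxa6 on the other strand and outside every GENCODE exon, had 0, 0 and 7.60 and then 64.0, 72.4 and 56.4. Its share of the reads of Anxa6 was 0.335% in the mutants (0.293 to 0.383) and 0.0130% in the controls (0.00475 to 0.0282). Of the 13 tested named genes that overlapped one of the loci, Anxa6 was the only one that was not higher.

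GSMG0034503, or Gm14377 (chromosome 7, 47110849 to 47125990, 15142 bp), lies within Ptpn5, the gene of a brain-enriched tyrosine phosphatase. It was at 0 in all controls and had 61.8, 83.0 and 102 in the mutants, at least 24.7-fold higher. Ptpn5 had 28.9, 11.3 and 21.5, and 290, 228 and 219. The locus was highest in the mutant where Ptpn5 was lowest, replicate 3, and its share ran from 21.3% in replicate 1 to 46.6% in replicate 3. No other GENCODE transcript aligned in the same sense to the transcript of Gm14377, and the opposite sense was not searched.

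GSMG0032752 (chromosome 6, 17076262 to 17171835, 95574 bp) has its upstream end within 2 bp of the GENCODE antisense gene Gm4876 and overlaps 72.7% of Tes, which encodes a LIM-domain protein of focal adhesions. It had 7.77, 0 and 2.53 in the controls against 70.6, 120 and 88.0 in the mutants, 27.7 times as many (14.4 to 61.1). Tes had 118, 130 and 108, and 359, 478 and 366. The share was 22.8% of the reads of Tes in the mutants (20.1 to 25.8) and 2.74% in the controls (1.24 to 5.26), where 7 of its 9 reads were in replicate 1.

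A further pair of loci on the opposite strand of a named gene met genes with few reads. GSMG0015795 (chromosome 16, 49928531 to 49972478, 43948 bp) had 0, 0 and 5.07, and 131, 105 and 81.1. It overlaps Gm19723, which had at most 8.0 in any library, and it overlaps no GENCODE gene. The nearest tested gene, Cd47, encodes the surface protein that signals to phagocytes not to engulf a cell. It lies 16850 bp away on the other strand and had 1850 to 2043 in the controls against 4940 to 6163 in the mutants (log2 fold change 1.5, SE 0.11, limma adjusted p = 3.8e-05). GSMG0068857 (chromosome 7, 101549940 to 101557876, 7937 bp) had 0, 0 and 6.34, and 54.6, 66.6 and 72.2. It lies opposite Art2a-ps, an ADP-ribosyltransferase pseudogene that was at 0 in the controls and at most at 10.2 in the mutants.

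The third group lies on chromosome 1 in and beside the Sp100 and Sp140 nuclear body protein family, whose members include interferon-induced readers of chromatin marks. GSMG0043143, the longest of the 22 (85026347 to 85327351, 301005 bp, minus strand), contains the GENCODE pseudogene Gm2619 and overlaps C130026I21Rik, which extends 33657 bp beyond it. It had 2.22, 0.945 and 0 in the controls against 108, 121 and 102 in the mutants. GSMG0000486, or A530040E14Rik (85105944 to 85114035, 8092 bp, plus strand), lies wholly within the span of GSMG0043143 on the other strand. It had 3.33, 2.83 and 0, and 113, 60.8 and 87.0. GSMG0043113 (85526657 to 85552184, 25528 bp, plus strand), which starts 33 bp before the GENCODE pseudogene Gm7592, lies 199 kb further on, with 0, 0 and 2.53 and then 124, 101 and 105.

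There are 4 named genes in this region of the table, and 4 of 4 were higher, beside 16.6% of the tested named rows of the whole table. A530032D15Rik overlaps both GSMG0000486 and GSMG0043143. It was at 0 in all controls and had 61.1, 50.2 and 53.4 in the mutants. Gm7609, a pseudogene within the span of GSMG0043143, had 0, 11.3 and 1.27, and 73.5, 55 and 131. Sp110 had 57.0 to 142 in the controls against 2419 to 3166 in the mutants (log2 fold change 5.05, SE 0.32, limma adjusted p = 1.88e-05), and Sp140 had 87.4 to 180 and 3012 to 4800 (4.91, SE 0.28, 1.19e-05). The nearer end of Sp110 lies 24715 bp from GSMG0043113 and that of Sp140 48519 bp from it.

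Near-identical copies make the reads of this region uncertain. The 627-base transcript of Gm7592 matched Gm2619 over 627 bases at 97.8% identity. Of the 2017 bases of A530040E14Rik, 372 were identical to Gm10552, and 99 GENCODE genes, Gm10552 among them, aligned to part of it. GSMG0000486 held 161% of the reads of A530032D15Rik in the mutants (134 to 194), and GSMG0043143 held 130% of those of Gm7609 (111 to 152) and 198% of those of A530032D15Rik. How the counting divided reads among these copies was not tested.

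**Figure D4:**
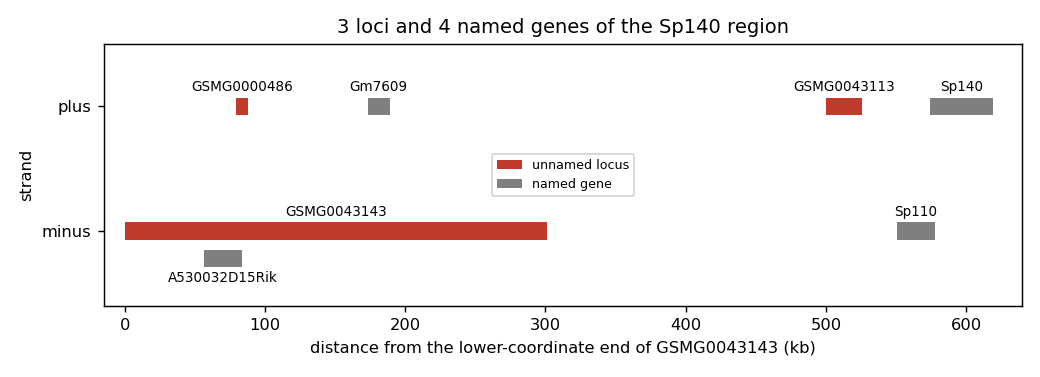
Map of the 3 unnamed loci (red) and 4 named genes (grey) on both strands of chromosome 1 around the Sp140 family, with distance in kb from the lower-coordinate end of GSMG0043143. GSMG0000486 and A530032D15Rik lie within the 301 kb of GSMG0043143, and GSMG0043113 lies 199 kb beyond it, next to Sp110 and Sp140.

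Another group lies on the strand of a named gene, inside it or next to it. GSMG0023069 (chromosome 2, 85030221 to 85033195, 2975 bp), the third highest of the 22, lies inside P2rx3, which encodes an ATP-gated ion channel known from pain-sensing neurons. It was at 0 in all controls and had 177, 201 and 231 in the mutants, at least 61.2-fold higher. P2rx3 had 49.97, 15.1 and 29.1, and 1117, 1133 and 1280, so both rows had the same order of mutants. The locus held 17.1% of the reads of P2rx3 in the mutants (15.8 to 18.6). In the controls, 0 stood beside 84 reads of P2rx3, which at the same floor allows up to 10.7%. GENCODE gives 689 bp of the locus (23.2%) to exons on its strand.

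GSMG0022448 (chromosome 2, 17392903 to 17528324, 135422 bp) lies inside Nebl, the gene of nebulette, an actin-binding protein of striated muscle. It had 8.88, 1.89 and 7.60, and 69.1, 113 and 118. Nebl had 11.1, 18.9 and 0, and 130, 130 and 225. The share of the reads of Nebl was 61.2% in the mutants (53.2 to 70.3) and 53.3% in the controls (27.2 to 101). By control library it was 80% in replicate 1 and 10% in replicate 2, and Nebl was at 0 in replicate 3. The skeletal muscle markers given above were higher in the mutants too, and their part in both rows was not tested.

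GSMG0031687 (chromosome 6, 36525016 to 36528637, 3622 bp) begins 242 bp after the end of the table's Chrm2 row on the same strand. GENCODE gives 93.8% of its bases to an exon of Chrm2, the gene of the M2 muscarinic acetylcholine receptor. The locus had 6.66, 9.45 and 7.60, and 57.5, 73.3 and 67.3, the smallest ratio of the 22 (8.14, 5.24 to 13.3). Chrm2 had 5.55, 3.78 and 5.07, and 23.3, 9.65 and 21.8 (log2 fold change 1.65, SE 0.70). It passed the study's threshold (limma unadjusted p = 0.0438) and is counted as higher below, but did not pass at an adjusted p at or under 0.05 (limma adjusted p = 0.101).

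GSMG0005752 (chromosome 11, 88970942 to 88973031, 2090 bp) lies 904 bp from Coil, the gene of coilin of Cajal bodies, in a span that GENCODE gives to Coil and to the pseudogene 2210409E12Rik. It was at 0 in all controls and had 53.8, 145 and 101 in the mutants, at least 30.0-fold higher. Coil had 969 to 1003 and 1263 to 1433, a log2 fold change of 0.44 (SE 0.11, limma adjusted p = 0.0173) that is under 2-fold. Elobl, an elongin B-like gene 4011 bp away on the other strand, had 0, 13.2 and 10.1, and 340, 1007 and 587. Elobl had the same order of mutants as GSMG0005752, with replicate 1 lowest and replicate 2 highest. Scpep1, a serine carboxypeptidase, and Trim25, a ubiquitin ligase that acts in sensing of viral RNA, lie further off and were higher as well (log2 fold change 1.16, SE 0.12, and 2.94, SE 0.21).

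GSMG0043224 was the shortest of the 22 loci and had the most reads. It covers 144 bp on chromosome 11. The locus was at 0 in all controls and had 1175, 820 and 1455 in the mutants.

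Its 144 bases are also found with 0 differences in transcripts of a gene elsewhere in the genome, so reads within this window cannot be told apart by sequence, and these values are not read as those of this copy alone. Which copy the reads came from was not tested.

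Of the 9 named genes within 50 kb of GSMG0043224, Rfng, Cbr2 and Fasn were lower and none was higher. Fasn, the fatty acid synthase that supplies lipids to myelinating SCs, had 10966 to 13066 in the controls against 1903 to 2866 in the mutants (log2 fold change -2.41, SE 0.15).

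GSMG0068166, on chromosome 5, was at 0 in all controls and had 98.9, 90.7 and 55.4 in the mutants, at least 24.6-fold higher. The last loci lie between named genes. GSMG0014132, or Ly6a2 (chromosome 15, 75131377 to 75135129, 3753 bp), is in the Ly6 cluster of small lipid-anchored surface proteins. It had 4.44, 0.945 and 1.27, and 90.9, 111 and 109. Its transcript matched Ly6a, known as Sca-1, at 85.2% identity over 647 of its 730 bases. Ly6c2, which marks monocytes and some T cells and lies 19406 bp away on the same strand, had 26.7, 13.2 and 19.0, and 346, 525 and 315 (log2 fold change 4.28, SE 0.38, limma adjusted p = 8.63e-05). Ly6g, the neutrophil surface marker 20132 bp away, was at 0 in all controls and at 2.91, 0 and 5.93 in the mutants.

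GSMG0036519, or Gm21123 (chromosome 7, 110690163 to 110699736, 9574 bp), was at 0 in all controls and had 79.3, 98.4 and 89.0 in the mutants. It was at least 26.8-fold higher, and no other GENCODE transcript aligned in the same sense to its own. GSMG0065493 (chromosome 10, 26929118 to 26934230, 5113 bp) overlaps no GENCODE gene. It had 0, 0.945 and 0, and 59.6, 83.9 and 55.4. Neither of its tested neighbours was higher. Lama2, the laminin chain of the SC basal lamina, lies 47058 bp away on the same strand and had 45123 to 56855 in the controls against 11017 to 16582 in the mutants (log2 fold change -2.01, SE 0.16, limma adjusted p = 5.71e-05).

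Over all 22 loci, 66 named genes lay within 50 kb and 54 of them were tested. The limits did not use the values of these genes, although they were measured in the same libraries. If part of the reads of a locus come from the gene it overlaps, the limits favour genes that rose, which was not tested. Counts that include overlapping genes are therefore not independent of the limits. There were 26 higher (48.1%), beside 16.6% of the 16649 tested named rows called higher, and 5 lower (9.26%), beside 9.01%. Their median log2 fold change was 0.90, and that of all tested named rows 0.13. Of the 13 tested genes that overlapped a locus, 12 were higher, 10 of them among 11 on the opposite strand. Of the 41 that overlapped none, 14 were higher (34.1%) and 5 were lower (12.2%), with a median of 0.23. Genes of 1 family or neighbourhood, such as Sp110 and Sp140, are not independent of each other, and the counts carry no test.

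Among the 10 neighbours with the largest rise, 6 overlapped a locus, namely Trib3, Prkg2, A530032D15Rik, P2rx3, Ifi47 and Tor3a, and Tgtp2, Vgf, Elobl and Sp110 did not. On the log2(value + 1) scale the largest was that of Tgtp2 (9.08), an interferon-inducible GTPase 21815 bp from GSMG0006605, with 65.5, 2764 and 0 in the controls against 32781, 26948 and 33286 in the mutants. It was 5.04 with DESeq2 and 5.05 with edgeR and not the largest there, and ranged from 6.17 without control replicate 3 to 11.9 without control replicate 2. Without control replicate 3, Tgtp2 was also below Trib3 (7.52) and Vgf (6.84). Vgf, a neuropeptide precursor within 50 kb of GSMG0068166, had 0, 17.0 and 0, and 514, 622 and 356. Control replicate 2 was the highest control for Tgtp2, Ifi47, Vgf and Elobl. The 5 that were lower were Gng7 (log2 fold change -2.54, a G protein gamma subunit), Fasn, Lama2, Cbr2 (-1.06) and Rfng (-1.0). With libraries rescaled to the same total, Cbr2 (-0.90) and Rfng (-0.84) were under 2-fold and lost the call. Of the ISG list, Tgtp2 and Trim25 lie within 50 kb of a locus. Ifi47 and Tor3a, which interferon induces as well, and Sp110 and Sp140 are not on that list, so this count depends on its make-up.

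**Figure D5:**
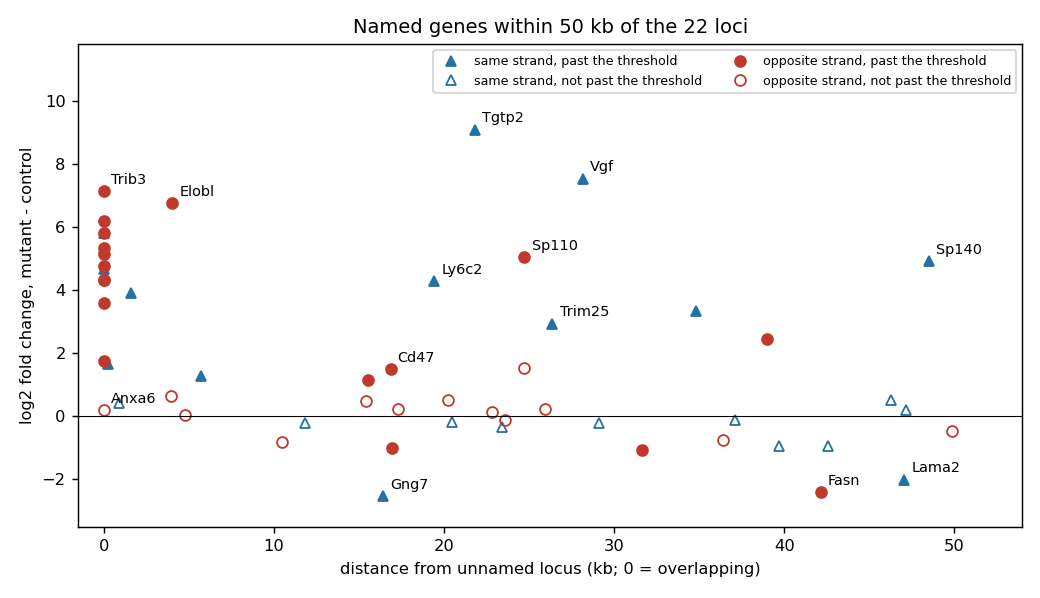
Log2 fold change (mutant minus control) of the 54 tested named genes within 50 kb of the 22 loci against their distance in kb, with 0 for overlap, triangles for the same strand, circles for the opposite strand, and filled symbols past the threshold. Overlapping genes were higher apart from Anxa6, and further away both directions occur, from Tgtp2 at 9.08 (5.04 with DESeq2) to Gng7 at -2.54.

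The limits cut through a range without a gap. Just inside the mutant limit were GSMG0005752, GSMG0068857 and GSMG0065493, whose lowest mutant values were 53.8, 54.6 and 55.4. Just outside it were GSMG0011889 (49.5), GSMG0022447 (49.2) and GSMG0030257 (47.5), whose controls were all under 10. GSMG0022447 (chromosome 2, 17375019 to 17391009) is next to GSMG0022448 in Nebl. Just inside the control limit were GSMG0031687, GSMG0022448 and GSMG0065528, whose highest controls were 9.45, 8.88 and 8.88. Just outside were GSMG0065744 (10.1), GSMG0004941 (11.3) and GSMG0065745 (11.4). GSMG0065744 (chromosome 11, 82035570 to 82037455) had 418, 371 and 706 in the mutants, more than every one of the 22 except GSMG0043224.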

How the data were processed

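RNA-seq libraries of the poly-A fraction came from sciatic nerves at P4, with 3 per genotype as the labels give them. Per the labels and the methods, the authors mapped reads to mm10 with STAR 2.4.0, counted reads on constitutive regions of FAST DB genes, and divided the counts by DESeq2 size factors. The deposited values are this normalised signal per gene. Dividing by the value of a single read (0.727 to 1.27 by library) gave whole numbers within 0.01 read for 100% of values.

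The 22 loci and all gene lists were chosen with earlier results of these data known. log2(value + 1) was fitted with limma (lmFit, eBayes with trend) for the 25802 rows with a mean of at least 10 in either genotype. Rows passed at an unadjusted p at or under 0.05 and at least 2-fold, and p-values were adjusted by Benjamini-Hochberg over every row in the fit. For rows with few reads, fold changes on this scale depend on the pseudocount and differ from those of count models. The script was tested on simulated data. Nothing says that libraries were made on separate days, and p-values measure the spread between these 6 animals. An exact permutation test of 3 against 3 cannot go below p = 0.1.

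Loci named are the 12 highest, the 5 longest and shortest, those near another, the 5 most and least variable, those at the limits, and the 10 nearest a gene on their strand, 20 of the 22 in all. GSMG0034503 and GSMG0005210 were described after their values were seen. Named genes are the nearest on each strand, those near more than 1 locus, and the 10 largest rises and 5 largest falls. Other genes, such as Cd47 and Scpep1, were named after their values were seen. Annotation came from GENCODE vM21 and RefSeq GRCm38.p6, and copies of transcripts were sought in the same sense only, with BLAST 2.17.0. Software was R 4.3.3 with limma 3.58.1, edgeR 4.0.16 and DESeq2 1.42.0, and Python 3.11.15 with pandas 2.3.3. Some items are not reported here.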

Additional observations from a re-analysis of the deposited data

How the results depend on the processing

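All 22 loci were past the threshold, and 77 ISGs were higher (of 77 tested, or of 78 without a filter), with pseudocounts of 0.1 and 10, other filters and scalings, eBayes without trend, edgeR and DESeq2 on recovered reads, an adjusted p at or under 0.05, and without any 1 library. The count of higher neighbours lay between 24 and 26 under these. The 5 lower neighbours were 3 with a pseudocount of 10 and with libraries rescaled to the same total, and 3 to 6 without 1 library (3 without control replicate 3 or mutant replicate 3). Rescaling to the same total moved the median log2 fold change of all rows from 0.03 to 0.20 and the share of higher among called rows from 57.3 to 66.4%. Single genes that lost their call were Chrm2 (12 settings, edgeR and DESeq2 among them), Rfng (8), Cbr2 (4) and Abl2 (1, without mutant replicate 3), and the cause was not tested.

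Windows and limits moved the counts by their construction. Within 10 kb, 16 of 20 tested neighbours were higher and 0 lower. Over the nearest gene alone these were 15 and 1 of 19, and on the same strand 12 and 2 of 24. With mutants at or over 100 there were 5 loci, of which 5 had a named gene within 50 kb, and with controls at or under 5 there were 14, of which 13 had one. Leaving out 1 library from the limits gave 26 to 35 loci, which include all 22 (35 without control replicate 3).

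No label says that replicate numbers mark a shared litter or batch. Same-numbered control and mutant libraries had correlations of -0.0619, -0.0555 and 0.00891 in their deviations from the genotype means, so they were not treated as pairs. With a replicate block, the block left 22 loci past the threshold and 25 higher and 5 lower neighbours. At 11 loci the mutant mean rests on under 100 normalised reads, and control values there are a few reads or none.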
